A study of Mus musculus with 20 samples.

Results

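Zinc finger protein (Zfp) genes were followed through 20 RNA sequencing libraries of mouse bone marrow-derived macrophages (BMDMs). The genes were taken as the protein-coding genes whose symbol is Zfp followed by a digit and whose mean over the 20 libraries was at least 3 CPM (a count scaled by the total of its library). Zfp36, Zfp36l1, Zfp36l2 and Zfp36l3, whose fingers are of another type, were left out. The rule kept 208 of 414 Zfp genes, and 21 of the 206 genes below the limit had no count in any library. The members nearest to the limit were Zfp965, Zfp954 and Zfp39, with means of 3.19, 3.09 and 3.05 CPM. The nearest genes left out were Zfp949, Zfp189 and Zfp947, with 2.98, 2.97 and 2.95 CPM.

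Most Zfp genes encode C2H2 proteins, in which a string of small fingers, each folded around a zinc ion, reads a stretch of DNA. Many also carry a KRAB domain, which recruits the corepressor Trim28 and, through it, the histone and DNA methylation that silences transposable elements and imprinted genes. Genes of this kind lie in clusters that grew by gene duplication, while other Zfp genes stand alone and code for chromatin factors, RNA-binding proteins, ribosome assembly factors or ubiquitin ligases.

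The BMDMs were wildtype in every group and came from the marrow of female C57BL/6J mice. What differed was the fluid added on day 7 of culture, at 200000 cells per well: PBS, or a fraction of bronchoalveolar lavage fluid (BALF) from mice with ovalbumin (OVA)-induced airway inflammation. The BALF donors carried an intact (RNY1+/+) or CRISPR-deleted (RNY1-/-) gene for RNY1, a small noncoding Y RNA, so that the genotype in a group's name is that of the fluid donors and not of the macrophages. An EV-enriched fraction (EVFx, size exclusion fractions 1 to 4) was dosed at 35000000 particles per ul and a protein-enriched fraction (ProteinFx, fractions 9 to 20) at 0.75 ug/ul of protein. Both fractions had been stored for 5 days before use. Mice were 7 to 16 weeks old. By the study's methods, the RNY1-/- mice came from GemPharmatech, and all other mice were wildtype C57BL/6J from JAX. A difference of source between the donors cannot be told apart from their RNY1 genotype. The 5 groups, PBS, RNY1+/+ EVFx, RNY1-/- EVFx, RNY1+/+ ProteinFx and RNY1-/- ProteinFx, held 4 libraries each. Because EVFx and ProteinFx were dosed in different units, no fit set their levels against each other directly. Where their values stand side by side below, the doses are not matched, and a higher level is not a stronger effect of a fraction. The labels place all libraries in 1 batch, and the source of the 4 libraries of each group (mice, fluid pools or wells) is not given in the sources used here, so p-values measure the spread between these libraries.

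Total counts ranged from 2510005 to 8277366 per library, and all 8 macrophage markers checked averaged at least 3 CPM, with a summed level of 8543 to 13440 CPM. Summed eosinophil markers (4 genes, 1 of them at 0 in every library) lay at 7.17 to 13.5 CPM with PBS, 0.801 to 2.46 CPM with either EVFx and 12.3 to 21.1 CPM with either ProteinFx, and the EVFx groups lay below PBS. Summed neutrophil markers (8 genes, none at 0 in every library) lay at 287 to 335 CPM with PBS, 144 to 210 CPM with RNY1+/+ EVFx, 185 to 266 CPM with RNY1-/- EVFx and 199 to 356 CPM with either ProteinFx, so that both EVFx groups lay below PBS. Summed fibroblast markers (5 genes, none at 0 in every library) lay at 24.7 to 51.4 CPM with PBS, 22.5 to 39.5 CPM with RNY1+/+ EVFx, 10.8 to 20.9 CPM with RNY1-/- EVFx and 11.6 to 29.0 CPM with either ProteinFx, and the EVFx genotypes did not overlap. Markers of T cells, B cells, dendritic cells and lung epithelium, each summed by cell type, reached at most 9.22 CPM in any library. A mean of at least 3 CPM was reached by 1 of the 4 eosinophil, 3 of the 8 neutrophil and 3 of the 5 fibroblast markers. These sums therefore rest on few genes. The part of the markers in the Zfp results was not tested. In bulk samples, fewer cells of a type, less RNA per cell and a change of single marker genes in the macrophages cannot be told apart. Libraries of a group were compared in pairs by their mean squared difference over that expected from counting. By this ratio PBS replicate 3 stood apart from the other PBS libraries, at 16.9 to 35.8, against 2.33 to 10.7 among the others. Counts that rest on PBS replicate 3 are given with and without it. The RNY1-/- ProteinFx libraries fell into replicates 1 and 2 and replicates 3 and 4. The ratio was 12.8 to 15.4 between these pairs and 3.54 and 2.38 within them. The RNY1-/- EVFx libraries split alike but less widely, with 6.05 to 8.79 between the pairs and 3.08 and 3.81 within them. Replicates 1 and 2 were the closest pair in every group but RNY1-/- ProteinFx. What the replicate numbers stand for is not given in the sources used here.

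Zfp transcripts were scarce. The median member averaged 9.10 CPM, 98 of 208 members averaged above 10 CPM, 15 above 50 CPM and 5 above 100 CPM. The highest means were those of Zfp281 (182 CPM), Zfp706 (163), Zfp91 (135), Zfp207 (112) and Zfp148 (101). Divided by transcript length, the highest were Zfp706 (36.9 CPM per kb), Zfp281 (36.8), Zfp207 (34.2), Zfp91 (24.3) and Zfp991 (22.4). Because these libraries were sequenced from the 3′ end, counts need not grow with transcript length. The second order favours short transcripts and is not a ranking of level. Zfp706 codes for a small protein that lowers Klf4 in embryonic stem cells, Zfp281 for a factor that binds G-rich promoters, Zfp207 for a spindle and splicing protein and Zfp91 for a ubiquitin ligase of the noncanonical NF-kB pathway. In 19 of the 20 libraries the count of Zfp991, named here after its values were seen, held a fraction of a read shared with another locus, and 128 of 208 members had such a fractional count in at least 1 library, so that near-identical copies could not be fully separated for them. The transcripts of members were poor in G and C, with a median GC content of 41.8% (33.2% to 61.1%) against 48.9% in the 9093 other protein-coding genes at or above 3 CPM.

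Between groups, most members moved little. The ratio of a member's highest to its lowest group mean had a median of 1.67, was above 2 in 53 members and above 4 in 3, which were Zfp811 (160), Zfp395 (8.13) and Zfp781a (6.43). The lowest of the 5 group means was the RNY1+/+ EVFx mean in 97 of 208 members, and the highest was the RNY1-/- ProteinFx mean in 82. These means are scaled by library total only, and the same ranks were not counted over all genes. On that scale the median log2 fold change of all genes against PBS itself differed between groups. It was -0.21 with RNY1+/+ EVFx, -0.27 with RNY1-/- EVFx, -0.20 with RNY1+/+ ProteinFx and -0.10 with RNY1-/- ProteinFx. The ranks are therefore not read as a trait of the Zfp genes.

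Zfp811 (ENSMUSG00000055202) was the member that differed most between the groups. It codes for a C2H2 protein and lies on the minus strand of chromosome 17, at 17:32795676-32809931 in GRCm38 (mouse assembly of the reference annotation, the authors having used GRCm39). Its count held such a fraction in 2 libraries. It measured 0.410, 0.154, 0.686 and 0.178 CPM in the PBS libraries, which is 1 to 3 counts each and 7 counts in all. The RNY1+/+ EVFx libraries held 55.7, 57.3, 55.1 and 59.9 CPM and the RNY1-/- EVFx libraries 46.9, 55.6, 56.2 and 59.7 CPM. The gene was thus near absence in PBS and at a like level with either EVFx, whose values overlapped each other and no PBS value.

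With ProteinFx, Zfp811 measured 16.1, 21, 8.92 and 20.5 CPM in the RNY1+/+ libraries and 2.27, 2.94, 5.58 and 2.33 CPM in the RNY1-/- libraries. All 4 RNY1-/- ProteinFx libraries lay below all 4 RNY1+/+ ProteinFx libraries, and all 8 lay above every PBS and below every EVFx library. Because PBS held so few counts, the rise is given as a ratio of summed counts per summed total, with an exact 95% interval that covers counting error only. The ratio to PBS was 175 (84.5 to 435) with RNY1+/+ EVFx, 165 (79.6 to 410) with RNY1-/- EVFx, 51.8 (24.8 to 130) with RNY1+/+ ProteinFx and 9.08 (4.13 to 23.6) with RNY1-/- ProteinFx.

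In the fit across all genes, Zfp811 rose against PBS with RNY1+/+ EVFx (adjusted p = 3.4e-09), RNY1-/- EVFx (6.9e-09) and RNY1+/+ ProteinFx (8.8e-07), and its mean in the RNY1-/- ProteinFx and PBS libraries was too low to be tested under the 3 CPM limit. No PBS library reached that limit, so the gene passed it in the other comparisons with PBS only through the fraction libraries. Between the ProteinFx genotypes it fell by 2.55 on the log2 scale (SE 0.32, adjusted p = 0.00056). Between the EVFx genotypes its log2 difference was 0.00 (SE 0.09, adjusted p = 0.98), but -0.24 (adjusted p = 0.049) after removing, in each library, its trends with the length and GC content of transcripts. The genotype difference itself differed between the fractions, by -2.58 on the log2 scale (SE 0.31, adjusted p = 0.00019). The ProteinFx and interaction calls held with every library left out in turn.

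The sequence around the annotated start of Zfp811 is shown with those of its nearest protein-coding neighbours on either side, Zfp871 and Zfp799, which share its strand. The windows are RefSeq promoter sequences of GRCm38.p6, each 300 bases of the minus strand written 5′ to 3′, with the start site near the right end. Capitals mark AANATGGC on either strand, the core of the sequence bound by the zinc finger factor YY1.
Zfp811, chr17:32809882-32810181: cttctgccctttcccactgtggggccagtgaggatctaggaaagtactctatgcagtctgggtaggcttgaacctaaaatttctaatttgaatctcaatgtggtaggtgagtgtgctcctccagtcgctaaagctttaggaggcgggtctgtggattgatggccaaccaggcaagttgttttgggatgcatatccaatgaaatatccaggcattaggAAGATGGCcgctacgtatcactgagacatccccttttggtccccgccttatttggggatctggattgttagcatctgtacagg
Zfp871, chr17:32788238-32788537: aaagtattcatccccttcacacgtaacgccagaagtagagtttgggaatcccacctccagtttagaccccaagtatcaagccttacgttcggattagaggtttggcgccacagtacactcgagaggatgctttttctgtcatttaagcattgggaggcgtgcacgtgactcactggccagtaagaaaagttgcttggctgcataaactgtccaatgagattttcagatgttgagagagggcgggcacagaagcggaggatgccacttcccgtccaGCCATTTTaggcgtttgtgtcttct
Zfp799, chr17:32830212-32830511: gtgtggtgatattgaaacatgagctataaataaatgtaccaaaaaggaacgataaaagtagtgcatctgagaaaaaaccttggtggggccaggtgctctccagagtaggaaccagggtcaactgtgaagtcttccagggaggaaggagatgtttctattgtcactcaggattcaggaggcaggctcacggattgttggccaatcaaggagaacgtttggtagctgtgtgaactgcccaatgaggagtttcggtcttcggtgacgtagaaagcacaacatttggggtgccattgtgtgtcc

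A match stood 33 bases before the start of Zfp811 and, on the other strand, just past the start of Zfp871, and none stood in the window of Zfp799. RefSeq gives a second window for Zfp871 (17:32787498-32787797), which is not shown and holds no match. Of 27025 gene symbols with a promoter window, 6.96% held AANATGGC, against 29 of the 170 members found there (17.1%). GGGCGG, the core of the GC box, stood in 38.2% of all symbols and in 89 members (52.4%), among them Zfp871 but not Zfp811 or Zfp799. TTCNNNGAA, the STAT motif, stood in 9.55% of symbols and 31 members (18.2%), and TGANTCA, the AP-1 motif, in 8.97% of symbols and 8 members (4.71%), of these windows in Zfp871 alone. The interferon-stimulated response element stood in 3.99% of symbols and 2 members (1.18%), and in none of these windows. Both strands were searched, and windows of members with shared ancestry are not independent.

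The protein-coding neighbours, given here for their position and not by the rule for named genes, moved far less. Zfp871 (17:32765496-32788287) averaged 42.0 ± 9.48 CPM (SD, n = 4) with PBS, 49.9 ± 5.48 with RNY1+/+ EVFx, 58.2 ± 4.26 with RNY1-/- EVFx, 51.0 ± 4.50 with RNY1+/+ ProteinFx and 42.5 ± 1.84 with RNY1-/- ProteinFx. Zfp799 (17:32815449-32830261) averaged 3.32, 4.29, 5.82, 5.40 and 4.97 CPM in the same order of groups. The log2 fold changes against PBS of Zfp871 were 0.43, 0.72, 0.46 and 0.09 (adjusted p = 0.047, 0.0018, 0.028 and 0.68) and those of Zfp799 were 0.52, 1.03, 0.84 and 0.59 (adjusted p = 0.13, 0.0076, 0.037 and 0.16). Across the start of Zfp811, however, Gm26693 (ENSMUSG00000097030), a noncoding RNA, begins 213 bases away on the plus strand (17:32810144-32821697). Annotated as antisense, it overlaps the span of Zfp799 on the other strand and not that of Zfp811. It held 1, 0, 0 and 0 counts in the PBS libraries, 23, 37, 12 and 25 with RNY1+/+ EVFx and 20, 31, 15 and 20 with RNY1-/- EVFx. It held 3, 3, 1 and 3 counts with RNY1+/+ ProteinFx and 1, 2, 0 and 1 with RNY1-/- ProteinFx. Every EVFx library lay above every other library.

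As a ratio of summed counts to PBS, Gm26693 stood at 71.4 (exact 95% interval 12.5 to 2849) with RNY1+/+ EVFx, 75.4 (13.2 to 3014) with RNY1-/- EVFx, 11.3 (1.61 to 490) with RNY1+/+ ProteinFx and 4.54 (0.449 to 224) with RNY1-/- ProteinFx, where the interval includes equality. The study's methods state strand-specific counting, and the annotated spans of Zfp811 and Gm26693 do not overlap. The values of all 3 genes are shown in the plot of the Zfp811 locus by library.

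**Figure D1:**
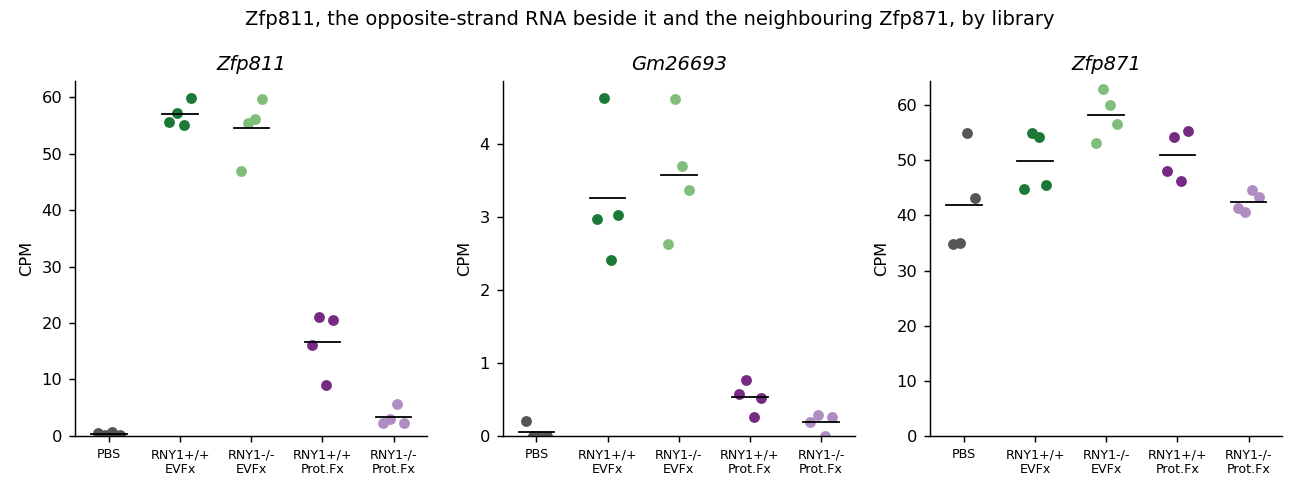
CPM per library of Zfp811, its divergent noncoding neighbour Gm26693 and the adjacent Zfp871 in the 5 groups (4 libraries each, line at the mean). Zfp811 and Gm26693 are near 0 with PBS and high with either EVFx, and the group means of Zfp871 lie between 42.0 and 58.2 CPM.

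Summed over the 208 members, Zfp transcripts made up 3245, 3311, 4242 and 3557 CPM in the PBS libraries and 3178, 3281, 3258 and 3013 CPM in the RNY1+/+ EVFx libraries. They made up 3740, 3653, 3716 and 3675 CPM with RNY1-/- EVFx, 4038, 4255, 3837 and 4102 CPM with RNY1+/+ ProteinFx, and 4079, 3945, 4697 and 4359 CPM with RNY1-/- ProteinFx. All 4 RNY1-/- EVFx libraries lay above all 4 RNY1+/+ EVFx libraries, and the ProteinFx genotypes overlapped each other. PBS replicate 3 lay apart from the other PBS libraries, inside the range of the ProteinFx libraries. The median coefficient of variation of members within a group was 22.0% with PBS and between 12.7% and 18.7% in the other groups.

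**Figure D2:**
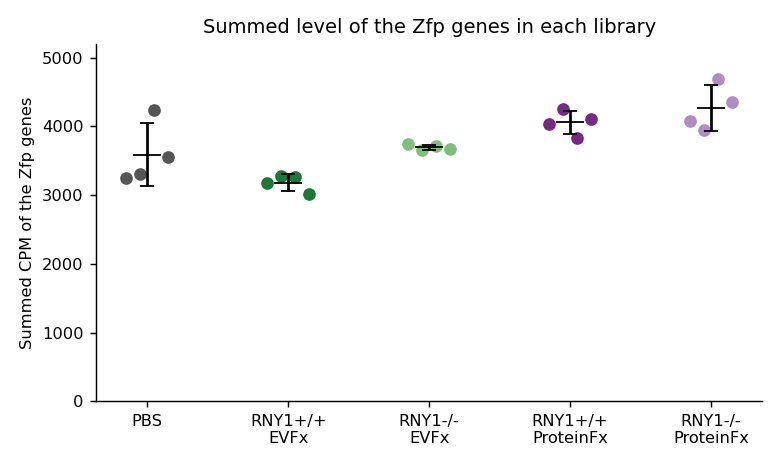
Summed CPM of the 208 Zfp genes in each of the 20 libraries by group, with the group mean and SD (4 libraries each). The RNY1+/+ EVFx libraries (3013 to 3281) lie below the RNY1-/- EVFx libraries (3653 to 3740), and 1 PBS library (4242) lies apart from the other 3.

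Each comparison used edgeR on the 8 libraries of 2 groups, with p-values adjusted over all genes tested, and a gene is called at an adjusted p under 0.05. The first 4 comparisons share the PBS libraries and are not independent of one another. With total counts in place of TMM, the median of all genes against PBS moved from -0.03 in each comparison to between -0.27 and -0.10 on the log2 scale, so splits between rises and falls are given under both scalings where they differ. Shares of all genes beside member counts are those of the main fits. Counts from alternative fits are given without such a share and are not to be read against the main one.

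With RNY1+/+ EVFx, 24 of 201 members tested rose against PBS (11.9%) and 33 fell (16.4%), both below the shares of all genes tested, of which 21.7% rose and 22.8% fell. The median log2 fold change of members was -0.03, as it was over all genes. With total counts 12 rose and 49 fell, with a median of -0.21, and without PBS replicate 3 the main fit called 40 rises and 31 falls.

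With RNY1-/- EVFx, 72 of 206 members rose (35%) and 25 fell (12.1%), against 27.7% and 30.6% of all genes, and the median of members was 0.22 against -0.03 over all genes. With total counts 41 rose and 48 fell and the median of members turned to -0.02, against -0.27 over all genes. With the replicate number as a block, 81 rose and 27 fell, and without PBS replicate 3 the split was 93 and 30.

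With RNY1+/+ ProteinFx, 64 of 207 members rose (30.9%) and 20 fell (9.66%), against 25.9% and 29.3% of all genes, with a median of 0.27. With total counts 40 rose and 33 fell, with a median of 0.10 against -0.20 over all genes. Without PBS replicate 3, 87 rose and 26 fell.

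With RNY1-/- ProteinFx, 40 of 205 members rose (19.5%) and 9 fell (4.39%), against 16.7% and 19% of all genes, with a median of 0.27. With total counts 34 rose and 11 fell. This count rested on single libraries: 21 members rose and 4 fell without PBS replicate 1, and also without PBS replicate 2, 69 rose and 14 fell without PBS replicate 3, and 28 and 23 members were called in all without RNY1-/- ProteinFx replicate 3 and 4. With the replicate number as a block, 83 rose and 17 fell.

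**Figure D3:**
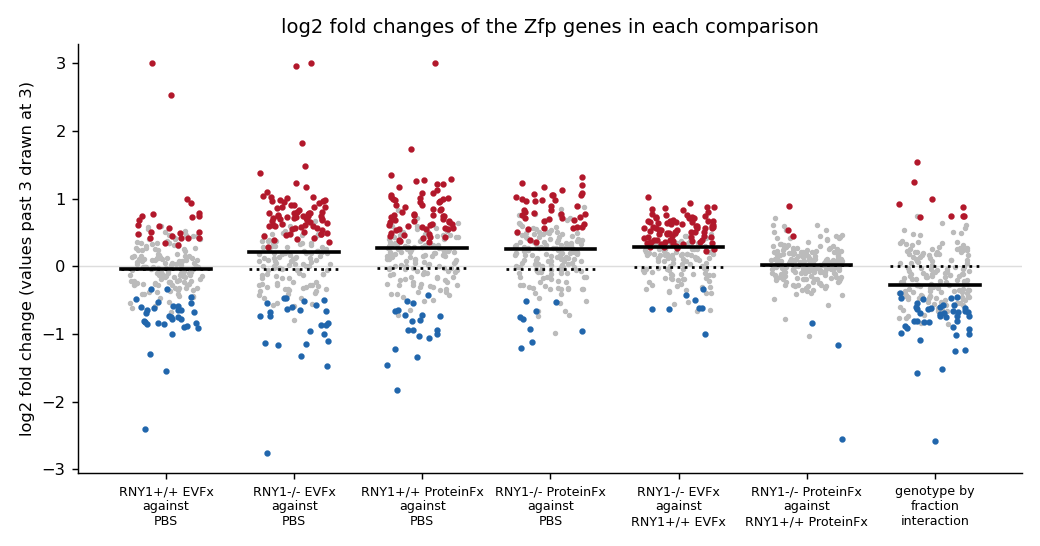
Log2 fold changes of the Zfp genes tested in each of the 6 comparisons and the interaction, with genes called higher in red, called lower in blue and not called in grey; values past 3 are drawn at 3. The solid line (median of the Zfp genes) lies above the dotted line (median of all genes) in 3 of the 4 comparisons with PBS and between the EVFx genotypes. These gaps shrank after the removal of length and GC trends. Against PBS the Zfp median was then -0.01 with RNY1-/- EVFx (all genes -0.04) and -0.04 with RNY1+/+ ProteinFx (all genes -0.08). With RNY1-/- ProteinFx it was 0.02 (all genes -0.06), and between the EVFx genotypes 0.07 (all genes -0.001).

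Zfp395 fell furthest against PBS in 3 of the 4 comparisons, and Zfp703 and Zfp282 fell further with RNY1-/- ProteinFx. The human counterpart of Zfp395 binds the promoter of the huntingtin gene. Zfp395 measured 25, 29.7, 12.8 and 19.6 CPM with PBS, 3.49, 4.25, 3.20 and 3.50 with RNY1+/+ EVFx and 3.41, 2.98, 2.46 and 1.85 with RNY1-/- EVFx. It measured 6.13, 5.83, 4.78 and 5.21 CPM with RNY1+/+ ProteinFx and 14, 12.2, 7.57 and 8.82 with RNY1-/- ProteinFx. The first 3 treated groups lay wholly below PBS, and RNY1-/- ProteinFx overlapped PBS replicate 3. The log2 fold changes were -2.41 (SE 0.25, adjusted p = 1.9e-05), -2.76 (SE 0.28, adjusted p = 1.4e-05), -1.82 (SE 0.25, adjusted p = 0.00012) and -0.95 (SE 0.27, adjusted p = 0.02). The last of these lost its call without PBS replicate 1 (-0.88, adjusted p = 0.058) or 2 (-0.78, adjusted p = 0.062), and without RNY1-/- ProteinFx replicate 3 (-0.85, adjusted p = 0.053) or 4 (-0.88, adjusted p = 0.064).

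Zfp704, whose protein is related to that of Zfp395, measured 77.5, 82.1, 97.9 and 91.2 CPM with PBS and 34.7, 40.2, 42.0 and 38.0 with RNY1+/+ EVFx. It measured 44.9, 43.8, 45.2 and 43.4 CPM with RNY1-/- EVFx, 37.3, 39.3, 44.0 and 31.6 with RNY1+/+ ProteinFx, and 66.9, 58.0, 56.8 and 52.3 with RNY1-/- ProteinFx. No treated library reached the PBS range. The gene fell by 0.99, 0.73, 1.03 and 0.51 on the log2 scale in the 4 comparisons (adjusted p = 3.3e-05, 0.00015, 4.4e-05 and 0.0081).

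Zfp652, a repressor that works with the corepressor Cbfa2t3, measured 40.5, 50.9, 49.6 and 42.4 CPM with PBS, 23.9, 20.7, 24.1 and 21.4 with RNY1+/+ EVFx and 26.3, 29.4, 20.7 and 20.8 with RNY1-/- EVFx. It measured 28.9, 31.0, 33.6 and 28.2 CPM with RNY1+/+ ProteinFx and 43.5, 44.7, 40.0 and 46.9 with RNY1-/- ProteinFx. The first 3 treated groups lay below every PBS library, with log2 falls of 0.85, 0.67 and 0.43, and RNY1-/- ProteinFx lay within and around the PBS range, with a log2 difference of 0.00 (adjusted p = 0.99).

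Zfp703 and Zfp503 code for related corepressors of the NET family, the first amplified in human breast cancer and the second known from the developing striatum, and they went opposite ways. Zfp703 measured 44.5, 47.4, 15.6 and 32.2 CPM with PBS, 21.1, 16, 15 and 25.1 with RNY1+/+ EVFx and 14.1, 12.7, 9.85 and 10.6 with RNY1-/- EVFx. It measured 13.6, 10.1, 10.6 and 10.9 CPM with RNY1+/+ ProteinFx and 19.5, 18, 12.4 and 7.26 with RNY1-/- ProteinFx. PBS replicate 3 reached down among the treated libraries. The gene fell by 1.32, 1.46 and 1.21 in the last 3 comparisons (adjusted p = 0.0026, 0.0016 and 0.024), while RNY1+/+ EVFx gave -0.68 (adjusted p = 0.085). With RNY1-/- ProteinFx the call was lost without PBS replicate 1 (-1.08, adjusted p = 0.068) or 2 (-1.05, adjusted p = 0.07) or RNY1-/- ProteinFx replicate 3 (-1.16, adjusted p = 0.059) or 4 (-1.01, adjusted p = 0.068).

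Zfp503 measured 7.58, 8.50, 14 and 11.9 CPM with PBS, 17.1, 16.6, 20.6 and 19.6 with RNY1+/+ EVFx and 22.5, 19.1, 24.9 and 25.7 with RNY1-/- EVFx. It measured 16.7, 15.7, 12.3 and 17.2 CPM with RNY1+/+ ProteinFx and 9.07, 6.99, 11.6 and 10.9 with RNY1-/- ProteinFx. Every EVFx library lay above every PBS library, and the RNY1-/- ProteinFx libraries lay in the PBS range or, in 1 library, just below it. The gene rose by 1.00 (SE 0.19, adjusted p = 0.0016), 1.38 (SE 0.20, adjusted p = 0.00018) and 0.75 (SE 0.21, adjusted p = 0.011) in the first 3 comparisons, and RNY1-/- ProteinFx gave -0.08 (adjusted p = 0.82).

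Zfp282, a KRAB-type repressor, fell in all 4 comparisons, by 0.81, 1.47, 1.06 and 1.11 on the log2 scale (adjusted p = 0.014, 0.0018, 0.002 and 0.0096). It measured 12.9, 13.4, 7.43 and 10.3 CPM with PBS and 1.23 to 6.43 CPM in the 16 treated libraries, all below PBS. Zfp512b measured 9.63 to 12.8 CPM with PBS and 4.63 to 5.43 CPM with RNY1+/+ EVFx, a fall of 0.90 (adjusted p = 0.00073).

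Among the rises, the G-rich-binding factor Zfp281, the member of highest mean CPM, measured 82.8, 77.9, 143 and 110 CPM with PBS and 116, 122, 109 and 92.8 with RNY1+/+ EVFx, which overlap. It measured 182, 156, 160 and 175 CPM with RNY1-/- EVFx, 278, 318, 265 and 366 with RNY1+/+ ProteinFx and 179, 157, 293 and 252 with RNY1-/- ProteinFx, all above PBS. The log2 fold changes were 0.27 (adjusted p = 0.27), 0.95 (SE 0.18, adjusted p = 0.00098), 1.74 (SE 0.19, adjusted p = 2.3e-05) and 1.17 (SE 0.25, adjusted p = 0.0064).

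Zfp597, Zfp268 and Zfp984, all C2H2 genes, rose with them. Zfp597 measured 4.92, 7.57, 8.46 and 6.76 CPM with PBS, 11.4, 11.3, 8.21 and 9.66 with RNY1+/+ EVFx and 13 to 15.4 CPM with RNY1-/- EVFx, and between 11.3 and 18.9 CPM with either ProteinFx. It overlapped PBS only with RNY1+/+ EVFx, and rose by 0.73, 1.24, 1.36 and 1.06 (adjusted p = 0.0087, 0.00015, 0.00015 and 0.0035). Zfp268 measured 12.3, 11.6, 18.5 and 13.1 CPM with PBS, 28.5, 25.2, 26.9 and 33.3 with RNY1+/+ ProteinFx and 29.1, 27.1, 37.8 and 38.1 with RNY1-/- ProteinFx. Both ProteinFx groups lay above PBS, with rises of 1.23 (SE 0.17, adjusted p = 0.00014) and 1.33 (SE 0.20, adjusted p = 0.0008), while RNY1+/+ EVFx gave -0.02 (adjusted p = 0.94). Zfp984 measured 20.6, 21.7, 33.6 and 24.0 CPM with PBS, 55.5, 47.7, 45.9 and 44.9 with RNY1+/+ ProteinFx and 52.3, 43.9, 68.7 and 54.7 with RNY1-/- ProteinFx. Here too no ProteinFx library reached down to PBS, and the rises were 1.13 (adjusted p = 0.00013) and 1.20 (adjusted p = 0.0012).

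Of the other members with the highest CPM, Zfp263 and Zfp131, C2H2 factors with a SCAN and a BTB domain, rose in all 4 comparisons, by 0.75, 1.1, 1.06 and 0.97 and by 0.62, 1.01, 0.98 and 0.70. For Zfp131 with RNY1-/- ProteinFx the adjusted p was 0.018, and 0.096 after the removal of length and GC trends (log2 fold change 0.24). Zfp131 also lost that call without PBS replicate 1 (0.62, adjusted p = 0.057), 2 (0.62, adjusted p = 0.062) or 4 (0.66, adjusted p = 0.053) or RNY1-/- ProteinFx replicate 3 (0.63, adjusted p = 0.051) or 4 (0.61, adjusted p = 0.061). Zfp706 fell with RNY1+/+ EVFx, from 178, 183, 227 and 177 CPM with PBS to 116, 101, 111 and 102 CPM, by 0.65 on the log2 scale (SE 0.11, adjusted p = 0.00064), with no overlap. Zfp781a, named here after its values were seen, measured 0.820, 0.618, 2.52 and 0.623 CPM with PBS, 5.30, 6.38, 5.66 and 5.56 with RNY1+/+ EVFx and 6.57, 7.63, 7.64 and 7.57 with RNY1-/- EVFx. Every EVFx library lay above PBS, with rises of 2.54 (SE 0.35, adjusted p = 0.00013) and 2.96 (SE 0.34, adjusted p = 3.4e-05), and the 8 ProteinFx libraries lay between 1.51 and 3.59 CPM. No PBS library reached 3 CPM, so Zfp781a passed the limit in the EVFx fits only through its EVFx libraries. The adjusted p-values do not account for this or for the choice of the gene. Against PBS, neither ProteinFx fit tested Zfp781a, whose mean was under the limit.

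**Figure D4:**
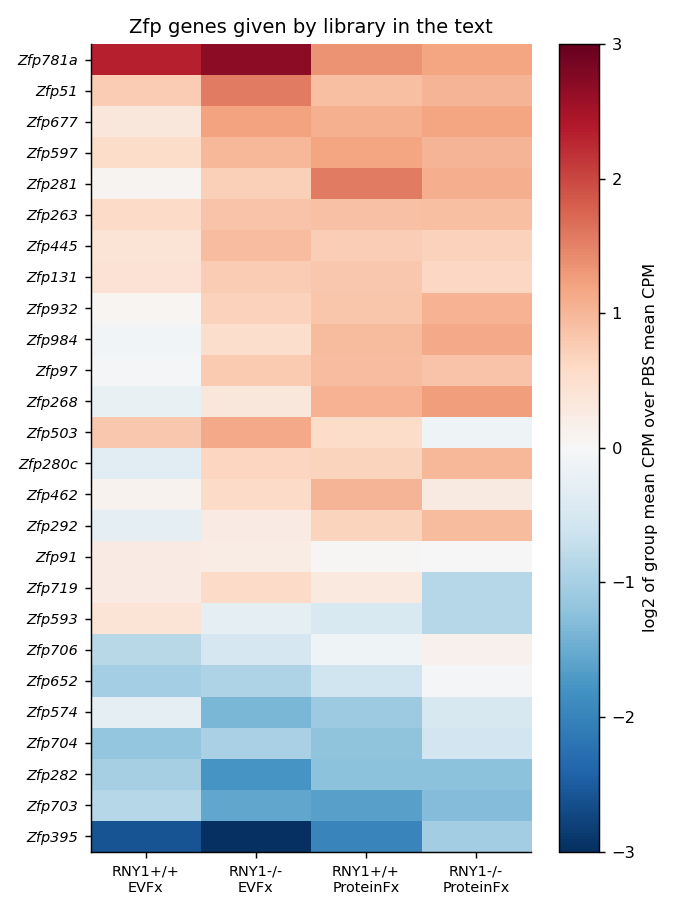
Log2 ratio of each treated group's mean CPM to the PBS mean CPM for 26 of the named Zfp genes, without Zfp811. Zfp395, Zfp704, Zfp282 and Zfp703 lie below PBS in all 4 treated groups, while Zfp503 and Zfp652 lie nearer to PBS with RNY1-/- ProteinFx than with RNY1+/+ ProteinFx.

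The genotype of the BALF donor was compared within each fraction. Between the EVFx genotypes, 82 of 196 members were higher with RNY1-/- EVFx than with RNY1+/+ EVFx (41.8%) and 8 were lower (4.08%), against 25.5% and 26.6% of all genes. The median log2 difference was 0.29 against 0.00 over all genes. With total counts 71 were higher and 13 lower, and 71 of the 82 were shared. With length and GC trends removed 31 were higher and 15 lower, with 24 of the 82 and 1 of the 8 shared and a median of 0.07. The differences were small, and 2 members were called with a log2 difference above 1 in either direction, against 2.35% of all genes.

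Those were Zfp280c, higher, and Zfp574, lower. Zfp280c measured 9.44, 10.1, 9.21 and 7.13 CPM with RNY1+/+ EVFx and 17.5, 14.3, 21.8 and 17.3 with RNY1-/- EVFx, without overlap, a difference of 1.03 (SE 0.15, adjusted p = 0.00031). Zfp574 measured 6.59, 6.26, 6.41 and 5.68 CPM with RNY1+/+ EVFx and 2.50, 4.47, 2.96 and 1.85 with RNY1-/- EVFx, without overlap, a difference of -1.0 (SE 0.22, adjusted p = 0.0027). Zfp574, whose transcript is rich in G and C (58.3%), lost the call when the trends were removed (-0.52, adjusted p = 0.084).

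Zfp677 and Zfp97, C2H2 genes of low level, followed. Zfp677 measured 4.59, 7.13, 5.31 and 3.99 CPM with RNY1+/+ EVFx and 9.59, 9.61, 8.13 and 10.9 with RNY1-/- EVFx, and Zfp97 measured 4.14, 3.42, 3.30 and 4.09 CPM and 6.72, 6.11, 7.27 and 6.45 CPM. Neither gene's groups overlapped, and the differences were 0.94 (SE 0.19, adjusted p = 0.0014) and 0.88 (SE 0.17, adjusted p = 0.001). Among the members of highest CPM, Zfp281 (0.69, adjusted p = 0.00023) and Zfp292 (0.59, adjusted p = 0.00023) were higher, and the call of Zfp292 was lost with trends removed (0.16, adjusted p = 0.075). Zfp148, which codes for a factor related to Zfp281, was called at 0.43 (adjusted p = 0.0019) but lay at -0.01 (adjusted p = 0.94) with trends removed.

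Among members with a mean of at least 5 CPM in these 8 libraries, the largest falls were those of Zfp703 (-0.64, adjusted p = 0.0083), Zfp513 (-0.62, adjusted p = 0.017) and the ribosome assembly factor Zfp593 (-0.61, adjusted p = 0.0082). Zfp593 measured 8.27, 8.01, 9.41 and 11.6 CPM with RNY1+/+ EVFx and 6.30, 5.36, 5.42 and 6.06 with RNY1-/- EVFx, without overlap. All 3 calls were lost with trends removed, at -0.04, -0.02 and -0.12 (adjusted p = 0.83, 0.94 and 0.59), and that of Zfp513 also without RNY1+/+ EVFx replicate 4 (-0.51, adjusted p = 0.053) or RNY1-/- EVFx replicate 4 (-0.52, adjusted p = 0.051).

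Between the ProteinFx genotypes few members differed. With RNY1-/- ProteinFx, 3 of 205 members were higher than with RNY1+/+ ProteinFx and 3 were lower (1.46% each), against 2.2% and 3.37% of all genes, and 23 members had an unadjusted p under 0.05. The median was 0.03, against 0.02 over all genes. The 2 members called with a log2 difference above 1, against 1.82% of all genes, were Zfp811 and Zfp719. The count fell to 3 members without RNY1+/+ ProteinFx replicate 1 or 2 or RNY1-/- ProteinFx replicate 2, and to 1 without RNY1+/+ ProteinFx replicate 4 or RNY1-/- ProteinFx replicate 1. Zfp811 held its call in each of these.

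Higher with RNY1-/- ProteinFx were Zfp395, Zfp704 and Zfp652, whose values by library are given above, and which had all fallen against PBS with RNY1+/+ ProteinFx. For each of them all 4 RNY1-/- ProteinFx libraries lay above all 4 RNY1+/+ ProteinFx libraries. The differences were 0.90 (SE 0.20, adjusted p = 0.021) for Zfp395, 0.54 (SE 0.12, adjusted p = 0.019) for Zfp704 and 0.45 (SE 0.11, adjusted p = 0.035) for Zfp652. Each call was lost without certain libraries. For Zfp395 these were RNY1+/+ ProteinFx replicates 3 (0.84, adjusted p = 0.06) and 4 (0.88, 0.086) and RNY1-/- ProteinFx replicates 1 (0.76, 0.079) and 2 (0.85, 0.061). For Zfp704 they were RNY1+/+ ProteinFx replicates 1 (0.53, adjusted p = 0.063) and 4 (0.47, 0.082) and RNY1-/- ProteinFx replicate 1 (0.48, 0.065). For Zfp652 the call held only without RNY1-/- ProteinFx replicate 3, and the other 7 values lay between 0.39 and 0.49, with adjusted p between 0.051 and 0.13.

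Lower with RNY1-/- ProteinFx, beside Zfp811, were Zfp503 and the KRAB-type gene Zfp719. The RNY1-/- ProteinFx values of Zfp503 all lay below those of RNY1+/+ ProteinFx, and the difference was -0.83 (SE 0.20, adjusted p = 0.026). Zfp719 measured 3.83, 6.84, 4.52 and 7.46 CPM with RNY1+/+ ProteinFx and 2.83, 3.50, 2.39 and 1.56 with RNY1-/- ProteinFx, without overlap, a difference of -1.17 (SE 0.30, adjusted p = 0.037). Zfp503 lost the call without RNY1+/+ ProteinFx replicate 1 (-0.79, adjusted p = 0.082), 2 (-0.83, 0.061) or 4 (-0.76, 0.11) or RNY1-/- ProteinFx replicate 1 (-0.80, 0.078) or 2 (-0.66, 0.079). Zfp719 lost it without RNY1+/+ ProteinFx replicate 2 (-1.09, adjusted p = 0.1) or 4 (-0.97, 0.16) or RNY1-/- ProteinFx replicate 1 (-1.18, 0.089) or 4 (-1.02, 0.084).

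Whether the genotype difference itself differed between the fractions was tested as an interaction over the 16 treated libraries, where a negative value means a lower RNY1-/- to RNY1+/+ ratio in ProteinFx than in EVFx. Of 206 members 43 were negative (20.9%) and 9 positive (4.37%), against 16.2% and 16.8% of all genes, with a median of -0.27 against 0.00 over all genes. With total counts 23 were negative and 13 positive, with a median of -0.11 against 0.16 over all genes. With length and GC trends removed 13 were negative and 13 positive, and 12 of the 43 and 5 of the 9 were shared. The count of 52 fell to 27 without RNY1+/+ EVFx replicate 4, 28 without RNY1-/- EVFx replicate 4, 27 without RNY1-/- ProteinFx replicate 1 and 24 without RNY1-/- ProteinFx replicate 2.

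The interaction exceeded 1 in 9 members, against 7.79% of all genes. After Zfp811, the most negative were Zfp462 (-1.58, SE 0.46, adjusted p = 0.016), which codes for a chromatin protein of stem cells, Zfp719 (-1.52, SE 0.34, adjusted p = 0.0052), Zfp281 (-1.26, SE 0.24, adjusted p = 0.0033) and Zfp503 (-1.24, SE 0.23, adjusted p = 0.0031). Zfp462 measured 1.55, 2.88, 3.8 and 2.90 CPM with RNY1+/+ EVFx, 3.81, 2.98, 4.68 and 3.87 with RNY1-/- EVFx, 4.59, 6.34, 5.28 and 4.68 with RNY1+/+ ProteinFx and 2.46, 1.26, 5.58 and 3.11 with RNY1-/- ProteinFx. Its genotypes overlapped within each fraction.

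Zfp97 (-1.08, adjusted p = 0.007) and Zfp677 (-1.02, adjusted p = 0.024) were also negative, and lost the call with trends removed (-0.64, adjusted p = 0.065, and -0.61, adjusted p = 0.1). Zfp677 also lost it without RNY1+/+ EVFx replicate 4 (-0.90, adjusted p = 0.057), RNY1-/- EVFx replicate 4 (-0.93, 0.055), RNY1+/+ ProteinFx replicate 1 (-0.94, 0.051) or 4 (-0.88, 0.064) or RNY1-/- ProteinFx replicate 1 (-0.88, 0.065) or 2 (-0.85, 0.073). Positive were Zfp574 (1.55, SE 0.35, adjusted p = 0.006) and Zfp395 (1.24, SE 0.29, adjusted p = 0.0064). Zfp574 was lower with RNY1-/- than with RNY1+/+ EVFx, while the ProteinFx genotypes, at 4.59, 2.28, 4.52 and 2.95 and at 7.75, 5.32, 4.78 and 4.15 CPM, differed by 0.54 (adjusted p = 0.3). Zfp395 was higher with RNY1-/- than with RNY1+/+ ProteinFx, while the EVFx genotypes differed by -0.34 (adjusted p = 0.19).

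Base composition moved with these differences in all genes, and many members were poor in G and C. Of the 196 members tested between the EVFx genotypes, 83 lay in the 10% of all genes of lowest GC content and 11 in the 10% of highest. Between the EVFx genotypes, the log2 difference fell with GC content, with a Spearman correlation of -0.65 across 10019 genes and -0.68 across the 196 members. These are descriptions across genes of the same 8 libraries, which are not independent replicates. The 66 members of lowest GC content (33.2% to 40.0%) had a median difference of 0.49, with 45 higher and 0 lower. The next 65 had a median of 0.35, with 29 higher and 1 lower, and the 65 of highest GC content (45.3% to 61.1%) a median of -0.04, with 8 higher and 7 lower. In all genes, the 10% of lowest GC content had a median of 0.40 and the 10% of highest GC content -0.58.

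The correlation with GC content was near 0 for RNY1+/+ EVFx against PBS (-0.09 over all genes, -0.07 over members) and negative for the other treatments against PBS, at -0.42 and -0.49 for RNY1-/- EVFx, -0.46 and -0.50 for RNY1+/+ ProteinFx and -0.49 and -0.59 for RNY1-/- ProteinFx. Between the ProteinFx genotypes it was 0.16 over all genes and 0.07 over members, and for the interaction 0.59 and 0.58. With the trends removed, the splits against PBS became 27 higher and 46 lower (RNY1+/+ EVFx), 45 and 48 (RNY1-/- EVFx), 34 and 42 (RNY1+/+ ProteinFx) and 24 and 21 (RNY1-/- ProteinFx). The shares of all genes called in these fits are not given, and those of the main fits do not apply to them. Of the rises in the main fits, 19 of 24, 39 of 72, 27 of 64 and 20 of 40 were shared. What lies behind the trend with GC content was not tested.

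**Figure D5:**
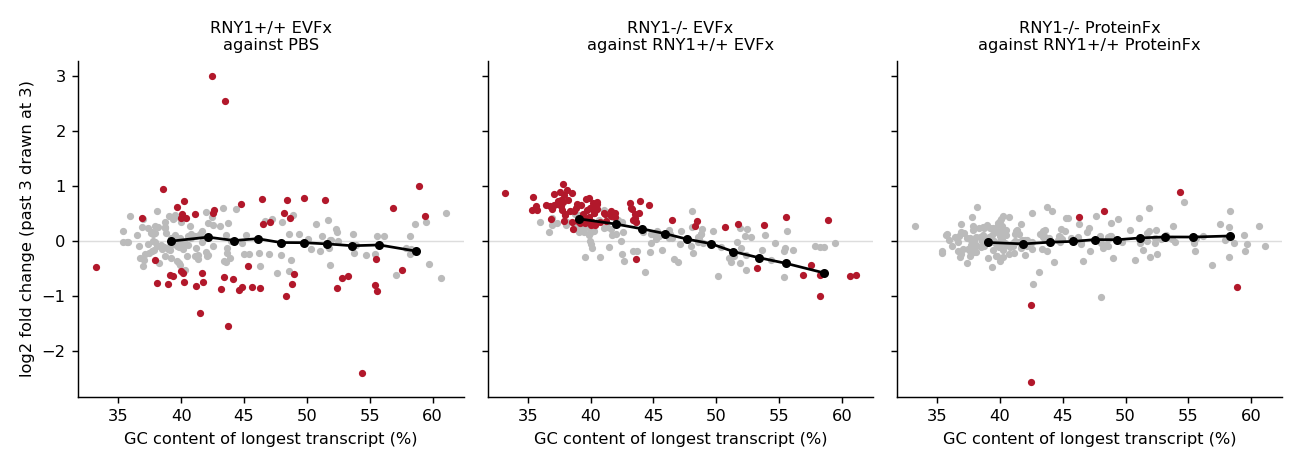
Log2 fold change against GC content (percent of the transcript) of the Zfp genes, called in red and not called in grey, for RNY1+/+ EVFx against PBS and for both genotype comparisons; the black line is the median of all genes in 10 bins of GC content. Between the EVFx genotypes the Zfp genes of low GC content lie above 0, where the line for all genes also lies, and with length and GC trends removed the median of the Zfp genes was 0.07.

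The small lists that follow are given as counts, to be read beside the shares of all genes called: 21.7% higher and 22.8% lower with RNY1+/+ EVFx against PBS, 27.7% and 30.6% with RNY1-/- EVFx, 25.9% and 29.3% with RNY1+/+ ProteinFx, 16.7% and 19% with RNY1-/- ProteinFx, and 25.5% and 26.6% between the EVFx genotypes. These shares are of the main fits and do not apply to counts with trends removed. By role, the members with a described part in RNA handling or translation (10 genes) split with RNY1+/+ EVFx into 4 rises and 1 fall, with a median of 0.15. The rises were Zfp598 (0.45, adjusted p = 0.0043), a ubiquitin ligase that senses collided ribosomes, Zfp593 (0.60, adjusted p = 0.04), the nucleolar protein Zfp330 (0.50, adjusted p = 0.0053) and the RNA-binding Zfp106 (0.35, adjusted p = 0.012), and the fall was that of Zfp706. Zfp598 measured 33.2, 33.7, 30.4 and 35.6 CPM with PBS and 37.6, 38.8, 40.8 and 43.9 with RNY1+/+ EVFx, without overlap. With RNY1-/- EVFx 3 rose and 1 fell (Zfp622, an export factor of the large ribosomal subunit, -0.46, adjusted p = 0.0085), and with either ProteinFx at most 1 was called in each direction. In the EVFx genotype comparison 2 were higher (Zfp706 and Zfp326, a splicing factor of the DBIRD complex) and 2 lower (Zfp593 and Zfp622), and with trends removed 1 was higher and 3 lower. Against PBS with trends removed, 3 rose and 1 fell with RNY1+/+ EVFx, 1 and 4 with RNY1-/- EVFx, 1 and 4 with RNY1+/+ ProteinFx and 2 and 2 with RNY1-/- ProteinFx. Between the ProteinFx genotypes and in the interaction none of the 10 was called, but with trends removed 3 were positive in the interaction. Zfp330 with RNY1+/+ EVFx and Zfp326 between the EVFx genotypes lost the call with trends removed (0.34, adjusted p = 0.06, and -0.18, adjusted p = 0.083). The call of Zfp593 with RNY1+/+ EVFx was lost without PBS replicates 1 (0.65, adjusted p = 0.053) and 4 (0.43, 0.098) and RNY1+/+ EVFx replicates 1 (0.65, 0.053), 3 (0.59, 0.075) and 4 (0.47, 0.12).

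Of 13 listed chromatin and transcription factors without KRAB, 11 were members. Where 12 were tested, the gene beyond these 11 was Zfp335, which lay below the limit with a mean of 2.87 CPM. With RNY1+/+ ProteinFx 5 of 12 tested rose, among them Zfp281 (1.74) and Zfp384 (0.57, adjusted p = 0.012), and 3 fell, Zfp335 among them (-0.79, adjusted p = 0.028). With RNY1+/+ EVFx 1 rose and 1 fell: Zfp143, which binds promoters and loop anchors, rose from 10, 9.58, 10.5 and 9.61 CPM with PBS to 14.6, 15, 13.4 and 13.2 CPM (0.68, SE 0.13, adjusted p = 0.0012), without overlap, and Zfp652 fell. With RNY1-/- EVFx 4 of 11 rose and 2 fell, and with RNY1-/- ProteinFx 2 of 12 rose and 2 fell, again with Zfp335 among the falls (-1.20, adjusted p = 0.012). With trends removed the rises and falls became 1 and 3 with RNY1+/+ EVFx, 2 and 4 with RNY1-/- EVFx, 4 and 3 with RNY1+/+ ProteinFx and 3 and 2 with RNY1-/- ProteinFx. In the EVFx genotype comparison 5 of 11 were higher and 1 lower, with trends removed 3 and 1. Zfp687 and Zfp318 were called in none of these comparisons, with values between -0.42 and 0.26 and between -0.24 and 0.12.

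Of 7 listed genes known for silencing of retroviral elements or for imprinting, 3 were members, and 4 lay below the limit. Zfp445, which protects imprinted methylation, measured 22.5, 31.2, 62.2 and 37.5 CPM with PBS, 47.6, 50.3, 60.9 and 46.6 with RNY1+/+ EVFx and 72.8, 71.9, 66.5 and 78.4 with RNY1-/- EVFx. Only the RNY1-/- EVFx libraries lay wholly above PBS, a rise of 1.17 (SE 0.24, adjusted p = 0.0018), and above RNY1+/+ EVFx, a difference of 0.58 (adjusted p = 0.00054). Zfp932, which acts on endogenous retroviruses, rose by 0.92 (adjusted p = 0.0028) with RNY1-/- EVFx, 1.01 (adjusted p = 0.00098) with RNY1+/+ ProteinFx and 1.07 (adjusted p = 0.013) with RNY1-/- ProteinFx. Zfp809, which recruits Trim28 to retroviral DNA, lay between 5.17 and 9.51 CPM in all 20 libraries and was called in no comparison.

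Of the 3 members with a part in ubiquitin or SUMO ligation, Zfp91 and Zfp598 rose with both EVFx and the SUMO ligase Zfp451 was called in no comparison. Zfp91 measured 119, 129, 137 and 115 CPM with PBS, 163, 149, 130 and 152 with RNY1+/+ EVFx and 149, 149, 147 and 136 with RNY1-/- EVFx, overlapping PBS in 1 library of each. It rose by 0.43 (adjusted p = 0.0058) and 0.46 (adjusted p = 0.0014), but with total counts both calls were lost, at 0.25 (adjusted p = 0.068) and 0.22 (adjusted p = 0.069).

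The genes through which KRAB proteins work were listed as well. Of 18 corepressor genes, 3 rose and 3 fell with RNY1+/+ EVFx, 5 and 8 with RNY1-/- EVFx, 5 and 7 with RNY1+/+ ProteinFx and 4 and 6 with RNY1-/- ProteinFx. With trends removed the counts became 3 and 5, 5 and 9, 5 and 10, and 3 and 6. Trim28, the scaffold, gave -0.33 (adjusted p = 0.21) with RNY1+/+ EVFx and fell by 1.06, 1.16 and 1.17 in the other comparisons (adjusted p = 0.0023, 0.0014 and 0.0069). The maintenance methylation factor Uhrf1 fell by 1.56, 1.5, 1.03 and 1.13, and the DNA methyltransferase Dnmt3a by 0.96, 0.82, 0.68 and 0.60. Dnmt1, of the same list, rose by 0.49 and 0.73 with RNY1+/+ and RNY1-/- EVFx (adjusted p = 0.008 and 0.00041). With RNY1+/+ and RNY1-/- ProteinFx it was not called (0.25 and 0.09). Atf7ip rose in all 4 comparisons, by 0.47, 0.43, 0.54 and 0.50. Morc3, an ATPase that represses endogenous retroviruses, rose by 0.87, 1.41, 1.80 and 1.33 (adjusted p = 0.0014, 2.1e-05, 2.3e-06 and 0.00072).

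Of 17 corepressor genes tested between the EVFx genotypes 5 were higher and 6 lower, with trends removed 5 and 3. Between the ProteinFx genotypes 0 of 18 were called, with trends removed 0 higher and 1 lower. Trim28 was lower with RNY1-/- EVFx, by -0.74 (adjusted p = 0.0013), and Resf1, a partner of the methyltransferase Setdb1, higher, by 0.61 (adjusted p = 0.00021). Of 4 genes of the HUSH silencing complex, 1, 2, 3 and 0 rose against PBS and 3 were higher with RNY1-/- than with RNY1+/+ EVFx, namely Mphosph8 (0.43), Tasor (0.46) and Pphln1 (0.33). With trends removed 1, 2, 0 and 0 rose against PBS and 1 was higher between the EVFx genotypes. A further 39 genes were taken by the name roots Zkscan, Zscan and Zbtb alone, without a check that each codes for C2H2 fingers. Of these, 19 of 37 were higher and 5 lower between the EVFx genotypes, with a median of 0.32, near the 0.29 of the Zfp genes. With trends removed 10 were higher and 0 lower.

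By position, chromosome 17 held 37 of the 208 members, chromosome 7 held 33, chromosome 13 held 24 and chromosome 8 held 16. A Zfp gene as next protein-coding neighbour was found for 108 members, with a median level of 7.46 CPM against 12.7 CPM in the 100 others. Of 102 tested members with such a neighbour, 46 were higher between the EVFx genotypes and 3 lower, and 36 of 94 without one were higher and 5 lower, with medians of 0.35 and 0.21. With trends removed these became 14 higher and 4 lower with a neighbour and 17 and 11 without one, with medians of 0.10 and 0.06. Chromosome 17 had 22 of 33 higher and 0 lower, with a median of 0.54, and chromosome 7 had 8 of 31 higher and 3 lower, with a median of 0.05. With trends removed, chromosome 17 had 8 higher and 1 lower, with a median of 0.20.

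A run of 7 adjacent Zfp genes on chromosome 17, all of them members, holds Zfp51, Zfp52, Zfp53, Zfp54, Zfp677, Zfp948 and Zfp983, and was chosen after its values were seen. Against PBS, 6 of the 7 rose with RNY1-/- EVFx, with log2 fold changes of 0.13 to 1.82 and a median of 0.94, while 1 rose with RNY1+/+ EVFx, 3 with RNY1+/+ ProteinFx and 2 with RNY1-/- ProteinFx. In the EVFx genotype comparison 5 of 7 were higher, with a median of 0.60, between the ProteinFx genotypes 0 were called, and in the interaction 2 were negative. With trends removed, 4 of 7 rose with RNY1-/- EVFx and 3 were higher between the EVFx genotypes, with medians of 0.49 and 0.29. Zfp51 carried the largest rise. It measured 8.40, 6.02, 12.6 and 6.94 CPM with PBS, 11.4, 16, 16.5 and 13.2 with RNY1+/+ EVFx and 21.5, 21.3, 30.5 and 27.1 with RNY1-/- EVFx, and all RNY1-/- EVFx libraries lay above all others of these groups. The rises against PBS were 0.94 (SE 0.23, adjusted p = 0.0061) and 1.82 (SE 0.23, adjusted p = 5.4e-05), and the EVFx genotypes differed by 0.88 (SE 0.15, adjusted p = 0.00067).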

How the data were processed

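Polyadenylated RNA of 20 macrophage libraries was sequenced from the 3′ end with unique molecular identifiers. The authors filtered reads with fastp 0.24.0, aligned them with STAR 2.7.11 to GRCm39, removed duplicates by molecular identifier and counted strand-specifically with featureCounts of Subread 2.1.1, sharing reads that map to several places as fractions. The authors deposited these expected counts without normalization, and CPM per library total. The 92 spike-in rows without a gene (0.000881% to 0.00305% of counts) were left out. Groups came from the library titles.

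Expected counts were rounded and tested with edgeR 4.0.16 (glmQLFit, glmQLFTest, TMM; R 4.3.3) over the 8 libraries of 2 groups, or 16 for the interaction, for genes kept by filterByExpr with a mean of at least 3 CPM, with Benjamini-Hochberg adjustment over all genes tested. Each standard error was taken as |log2 fold change| / sqrt(F). Summaries used Python 3.11.15. Intervals of count ratios are exact and cover counting error only. Transcript length, GC content and positions came from a GENCODE annotation of GRCm38, matched by gene identifier, and promoters from RefSeq on GRCm38.p6; no position was converted between builds. Fits were tested on simulated data.

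Named were Zfp811, the 10 members of highest CPM, the 3 largest rises and falls per comparison among calls with at least 5 CPM, members called above 1 on the log2 scale by genotype or interaction, listed genes and those next to the limit; any other is said to be chosen after its values were seen. The members, lists and rules were chosen with earlier results of these data known. Replicate numbers were checked by the correlation of same-numbered libraries' deviations from group means. It was over 0.1 in 4 of 4 pairs (0.129 to 0.381) for RNY1-/- EVFx against PBS. For RNY1-/- ProteinFx against PBS it was over 0.1 in 3 of 4 pairs (0.018 to 0.641), and in fewer pairs in the other comparisons. The main fits used no pairing in any comparison, and their p-values leave out any that exists. The replicate block is given as an alternative. Alternatives were DESeq2 1.42.0, total counts, other filters, a fold limit, all 20 libraries in the fit, thinned counts, a replicate block, removal of length and GC trends (natural splines, 4 degrees of freedom) and leaving out each library.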

Additional observations from a re-analysis of the deposited data

Results flagged for a closer look

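Of 140 groups of 4 libraries examined for the named Zfp genes, 7 had a library whose gap to the nearest other library, over the range of the group, exceeded Dixon's 95% critical value; chance gives about 1 in 20 such groups. With RNY1+/+ EVFx, replicate 3 was the low library for Zfp282 (0.919), replicate 2 the high one for Zfp984 (0.888) and replicate 4 the low one for Zfp263 (0.922). With RNY1+/+ ProteinFx, replicate 3 was the low library for Zfp131 (0.870). PBS replicate 3 was the high library for Zfp706 (0.868) and for Zfp781a (0.894), and RNY1-/- EVFx replicate 1 the low one for Zfp781a (0.940).

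The genotype difference differed between the fractions by more than 1 on the log2 scale, in the test of the interaction, for 9 Zfp genes. The values were -2.58 for Zfp811, -1.58 for Zfp462, -1.52 for Zfp719, -1.26 for Zfp281, -1.24 for Zfp503, -1.08 for Zfp97, -1.02 for Zfp677, 1.24 for Zfp395 and 1.55 for Zfp574.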

How the results depend on the processing

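Zfp members called by fold as well (log2 above 1) numbered 5, 20, 22 and 13 against PBS (RNY1+/+ EVFx, RNY1-/- EVFx, RNY1+/+ ProteinFx, RNY1-/- ProteinFx), 2 between the EVFx genotypes, 2 between the ProteinFx genotypes and 9 in the interaction. With this fold limit, shares of all genes are given above for the genotype and interaction fits only. The alternative counts that follow have no such share beside them. At the adjusted p alone, with no fold limit, members called with counts thinned to the smallest library numbered 36 (RNY1+/+ EVFx against PBS), 52 (EVFx genotypes), 3 (ProteinFx genotypes) and 15 (interaction). With all 20 libraries in the fit they numbered 85 for RNY1-/- ProteinFx against PBS and 27 for the interaction, and with no filter 31 for the interaction. With length and GC trends removed they numbered 46, 10 and 26 in the EVFx genotype, ProteinFx genotype and interaction fits. The replicate block gave 100 for RNY1-/- ProteinFx against PBS and 3 for the ProteinFx genotypes, and block and trend removal together 48 for the EVFx genotypes and 24 for the interaction. Same-numbered libraries of RNY1-/- ProteinFx and PBS correlated at 0.018 to 0.641, over 0.1 in 3 of 4 pairs. The labels give no pairing in any comparison. For RNY1-/- EVFx against PBS, 2 of the numbers correlated best with themselves, and 1, 0, 3, 2 and 1 did in the other 5 comparisons.

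Leaving out each library in turn gave 39 to 71, 76 to 123, 61 to 113 and 23 to 83 members against PBS, 66 to 95 between the EVFx genotypes, 1 to 9 between the ProteinFx genotypes and 24 to 72 in the interaction.

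With trends removed, and with the block added, Zfp811 between the EVFx genotypes turned to -0.24 and -0.24 (adjusted p = 0.049 and 0.018). Reversed, without a call, were Zfp330 with RNY1-/- EVFx against PBS (-0.12, -0.12), Zfp207 with RNY1+/+ ProteinFx against PBS (-0.076, -0.074) and, between the EVFx genotypes, Zfp148 (-0.011, -0.012), Zfp638 (-0.081, -0.082), Zfp326 (-0.18, -0.18) and Zfp644 (-0.11, -0.11). Of 2649 alternative values for 148 results on named genes, 2314 kept direction and call, 321 lost the call and 14 turned sign; the cause was not tested.

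Depth limits the members near 3 CPM, where a library of 2510005 counts holds few reads per gene.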

Other observations

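The 206 Zfp genes below the limit were tested in fits without a filter on low counts, in which up to 176 of them entered. Against PBS, 3, 3, 1 and 3 of them rose and 7, 14, 13 and 7 fell with RNY1+/+ EVFx, RNY1-/- EVFx, RNY1+/+ ProteinFx and RNY1-/- ProteinFx. Of all genes in the same fits 10.4%, 11.4%, 10.9% and 8.14% rose and 10.5%, 14.3%, 13.4% and 9.25% fell. Between the EVFx genotypes 3 of 167 were higher and 8 lower, against 8.30% and 10.9% of all genes, and between the ProteinFx genotypes 2 of 171 were higher and 0 lower, against 1.69% and 1.81%.

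Zfp1008 and Zfp667, chosen after their values were seen, went opposite ways with RNY1+/+ EVFx. Zfp1008 averaged 0.990 CPM with PBS, 2.91 with RNY1+/+ EVFx, 3.40 with RNY1-/- EVFx and 0.608 and 0.658 with RNY1+/+ and RNY1-/- ProteinFx, and it rose by 1.69 (SE 0.37, adjusted p = 0.00012) with RNY1+/+ EVFx. Zfp667 averaged 1.71 CPM with PBS and 0.195 with RNY1+/+ EVFx, a fall of 2.88 on the log2 scale (SE 0.59, adjusted p = 3.7e-05) that rests on few counts.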
